A study of Mus musculus with 2 samples.

Results

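Open chromatin was described in the gene deserts of mouse T-helper 2 (Th2) cells. Overlapping peaks of 2 libraries, labelled ATAC-seq, were joined (overlap of at least 1 bp), and a joined region was kept when it held a peak of both libraries on chromosomes 1 to 19 or X. It counted as a desert region when its centre lay outside every protein-coding gene body of GENCODE M21 and over 100 kb from the nearest protein-coding transcription start site. Of 44054 regions present in both libraries, 2846 (6.46%) met this rule, which is 19.5% of the 14558 intergenic regions. Both libraries came from 1 group, Th2 primary cells of strain C57BL/6NJ, deposited as replicates 1 and 2 under the same donor record. No allele, treatment, other cell type or control was part of the series, age and sex were not given, and the labels point to a protocol for differentiating CD4+ T cells. Peak names in the lists include the unexplained terms insert and ASTARR, with an hour count, so whether these are plain ATAC-seq libraries or the input of another assay is not settled here. Nothing states that the replicates came from separate animals, so their spread may be technical. With 1 group of 2 libraries no test between conditions exists, and no p-value is given; regions of one library share its reads and are not replicates.

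ATAC-seq uses a transposase that cuts DNA where it is not wrapped in nucleosomes, so a peak marks accessible DNA such as a promoter, an enhancer or an insulator. Gene deserts are long stretches without protein-coding genes; some hold enhancers that act over long distances on a gene at the desert's edge, and others are nearly empty. In T cells, AP-1 (Fos, Jun and BATF proteins), RUNX, ETS and STAT factors bind many distal enhancers, GATA3 directs the Th2 programme, and CTCF binds insulators and the anchors of chromatin loops. Accessibility alone does not say which gene a region acts on or whether it acts at all.

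The reference sequences of 9 desert regions show the kinds of site described here. Each is 200 bases around the summit of the stronger replicate, on the plus strand of GRCm38 (mm10), read 5′ to 3′. Capitals mark matches, on either strand, to the short consensus letters searched: TGANTCA for AP-1, AGGAAGT for ETS, TGTGGTT for RUNX, AGATAA for GATA, TTCNNNGAA for STAT and CNAGNGGGC for the CTCF core. The sequences are the strongest regions of 4 of the fullest deserts and of the 2 largest groups of regions. To these were added the strongest and the farthest region of all whose median 31-base word occurred once in the genome. The Dyrk1a to Kcnj6 window was picked as the strongest with a long CTCF sequence. A median of 1 does not make a window unique. The Rap2b to Arhgef26 window had 6 alike places (at least 80% identity over at least 50% of the window, itself included).
Foxo1 to Cog6 desert, chr3:52555173-52555372: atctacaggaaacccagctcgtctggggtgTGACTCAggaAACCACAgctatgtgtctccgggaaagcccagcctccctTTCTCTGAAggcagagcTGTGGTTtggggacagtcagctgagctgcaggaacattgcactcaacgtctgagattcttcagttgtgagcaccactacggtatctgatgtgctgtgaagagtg
Vrk1 to 3110018I06Rik desert, chr12:106649509-106649708: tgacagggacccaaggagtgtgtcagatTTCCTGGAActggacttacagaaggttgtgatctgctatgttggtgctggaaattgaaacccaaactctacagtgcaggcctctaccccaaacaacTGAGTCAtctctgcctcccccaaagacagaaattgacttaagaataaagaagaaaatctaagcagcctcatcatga
Celf2 to Gata3 desert, chr2:8965024-8965223: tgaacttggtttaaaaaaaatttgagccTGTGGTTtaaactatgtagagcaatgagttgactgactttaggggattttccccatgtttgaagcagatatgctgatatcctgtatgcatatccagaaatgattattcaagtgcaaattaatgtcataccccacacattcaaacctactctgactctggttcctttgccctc
Myc to Gsdmc desert, strongest, chr15:62763339-62763538: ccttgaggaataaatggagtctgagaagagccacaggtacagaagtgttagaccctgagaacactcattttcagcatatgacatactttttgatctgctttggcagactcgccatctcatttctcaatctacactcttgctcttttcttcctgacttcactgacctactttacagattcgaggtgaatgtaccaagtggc
Myc to Gsdmc desert, largest group, chr15:62846600-62846799: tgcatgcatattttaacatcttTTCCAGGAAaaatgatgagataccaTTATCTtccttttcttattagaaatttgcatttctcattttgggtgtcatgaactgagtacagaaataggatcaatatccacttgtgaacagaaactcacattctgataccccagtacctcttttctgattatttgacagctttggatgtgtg
Tnfaip3 to Olig3 desert, chr10:19202469-19202668: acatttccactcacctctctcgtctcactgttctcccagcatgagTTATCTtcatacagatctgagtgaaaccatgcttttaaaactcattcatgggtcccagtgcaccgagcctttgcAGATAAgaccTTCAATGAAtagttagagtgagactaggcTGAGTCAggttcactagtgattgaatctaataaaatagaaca
Dyrk1a to Kcnj6 desert, chr16:94713774-94713973: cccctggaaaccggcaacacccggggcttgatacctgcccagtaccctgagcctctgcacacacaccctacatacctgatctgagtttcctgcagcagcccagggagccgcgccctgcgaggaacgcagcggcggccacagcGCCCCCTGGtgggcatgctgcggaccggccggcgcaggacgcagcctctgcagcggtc
Cntnap5b to Cdh20 desert, chr1:101902164-101902363: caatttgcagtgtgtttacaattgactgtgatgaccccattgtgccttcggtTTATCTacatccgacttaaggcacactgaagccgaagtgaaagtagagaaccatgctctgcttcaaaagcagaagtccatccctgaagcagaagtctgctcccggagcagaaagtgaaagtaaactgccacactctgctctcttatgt
Rap2b to Arhgef26 desert, chr3:62159095-62159294: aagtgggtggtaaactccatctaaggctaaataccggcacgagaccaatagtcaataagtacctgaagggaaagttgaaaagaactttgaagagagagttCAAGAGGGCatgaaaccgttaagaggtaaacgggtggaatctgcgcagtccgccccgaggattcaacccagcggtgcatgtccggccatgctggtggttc

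The Foxo1 region held an AP-1 match, a STAT match and 2 RUNX matches in its 200 bases, with a fold enrichment of 15.5 in replicate 1 and 18.1 in replicate 2. Fold enrichment is the authors' own value for each peak, the signal at the summit over the local background, and the stronger peak of each replicate was used where a region held several. The Tnfaip3 to Olig3 region, at 13.3 and 16.6, held an AP-1 match, a STAT match and 2 GATA matches. The strongest region of the Myc to Gsdmc desert, at 14.6 and 19.98, held none of the 6 sequences. A match is a description of letters and not a bound site, and its absence says only that these letters were not in the window.

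The 2 lists held 51557 and 60891 peaks in replicates 1 and 2, with median fold enrichments of 5.58 and 5.65 over all peaks. The lists give no read totals. The fold and the −log10 p of a peak together give back the fragment pileup behind it under a Poisson model, which recovered whole pileups for 99.9% and 99.8% of peaks to within 0.001 on the −log10 p scale. At desert regions the median pileup was 30 in replicate 1 and 40 in replicate 2, the same medians as at intergenic regions 10 to 100 kb from a start site, against 38 and 53 over all other regions. The labelled cell type was checked at promoters: 7 of 8 Th2 genes (all but Il1rl1) and 7 of 7 pan-T genes had an open region at a start site in both libraries, against 0 of 4 B cell, 0 of 4 myeloid, 0 of 3 CD8 and NK and 0 of 3 mast cell and basophil genes. Of 2 further lists, 2 of 3 Th1 genes (Tbx21 and Cxcr3) and 1 of 3 erythroid genes (Klf1) were open, and over all protein-coding genes the share was 58.9%.

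Desert regions thinned out with distance from genes, while their strength differed little. Bases outside gene bodies and over 100 kb from a start site made up 31.5% of the sequenced bases of these chromosomes (805 Mb), and they held 3.53 desert regions per Mb, against 23.5 regions per Mb in the rest of the chromosomes. The median distance to the nearest protein-coding start was 182 kb (quartiles 131 and 287 kb). From 100 to 200 kb there were 1617 regions (6.95 per Mb), from 200 to 500 kb 988 (3.12 per Mb), from 500 to 1000 kb 209 (1.20 per Mb) and beyond 1000 kb 32 (0.394 per Mb). Median fold enrichments in these 4 distance bins lay between 5.77 and 6.21 in replicate 1 and between 6.10 and 6.77 in replicate 2, with no steady order by distance. Regions just inside the limit, at 100 to 110 kb, numbered 264 with median folds of 6.15 and 6.45 and a median width of 630 bp. Those just outside it, at 90 to 100 kb, numbered 299 with 5.71 and 6.35 and 607 bp.

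**Figure D1:**
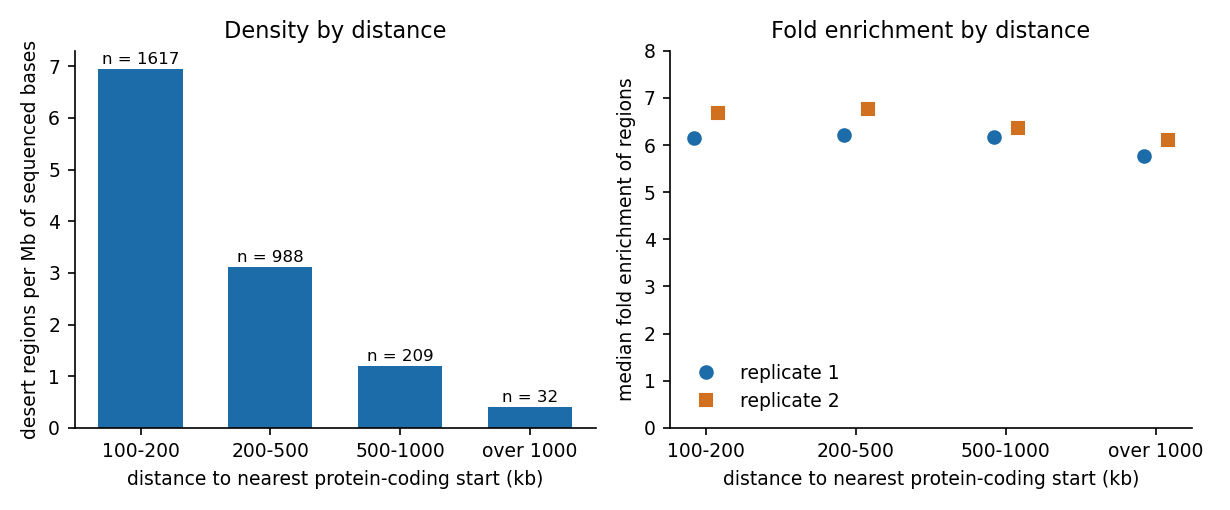
Left, desert regions per Mb of sequenced bases at 4 distances (kb) from the nearest protein-coding start site, with the number of regions above each bar; right, their median fold enrichment in each replicate. Density was 6.95 per Mb at 100 to 200 kb and 0.394 per Mb beyond 1000 kb, while median folds stayed between 5.77 and 6.77.

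The farthest region lay 2129.8 kb from any protein-coding start, in the desert of 4283 kb between Cntnap5b, a neuronal adhesion gene, and Cdh20, a cadherin gene, on chromosome 1. It was the only region of that desert, with folds of 4.62 and 4.29 and pileups of 17 and 18; its 200 bases held a GATA match. The next 2 by distance lay 1652 and 1638 kb out, in the Kcnt2 to Cdc73 desert, with folds of 5.64 and 4.97 and of 3.08 and 3.61. On the X chromosome, a region 1579.75 kb from Diaph2 had folds of 7.95 and 7.45. A region 1254 kb from Zeb2, a repressor gene of the ZEB family, had folds of 9.93 and 13.4 and was the strongest of the 10 farthest. The Celf2 to Gata3 desert supplied the tenth, 1161 kb from Gata3, with folds of 7.99 and 5.65.

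In median fold and width, desert regions lay close to other distal regions and below promoters. Their median fold was 6.16 in replicate 1 and 6.66 in replicate 2, against 5.73 and 6.55 for intergenic regions 10 to 100 kb from a start (n = 8788), 5.15 and 5.82 for those within 10 kb (n = 2924), 5.38 and 6.14 in gene bodies (n = 17389) and 9.22 and 10.4 at promoters (within 1 kb of a start, n = 12107). The desert median was above the 10 to 100 kb median in each replicate, but by less than replicates 1 and 2 differed from each other. On the pileup scale the order turned, with a median of the 2 replicates' mean pileup of 34.5 in deserts and 35 at 10 to 100 kb, so no direction is read from the fold. The median width was 628 bp in deserts (quartiles 445 and 852 bp), 632 bp at 10 to 100 kb, 616 bp in gene bodies and 1162 bp at promoters. Regions over 1 kb wide made up 15.9% of desert regions, against 30.7% of all other regions and 16.6% of those at 10 to 100 kb.

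**Figure D2:**
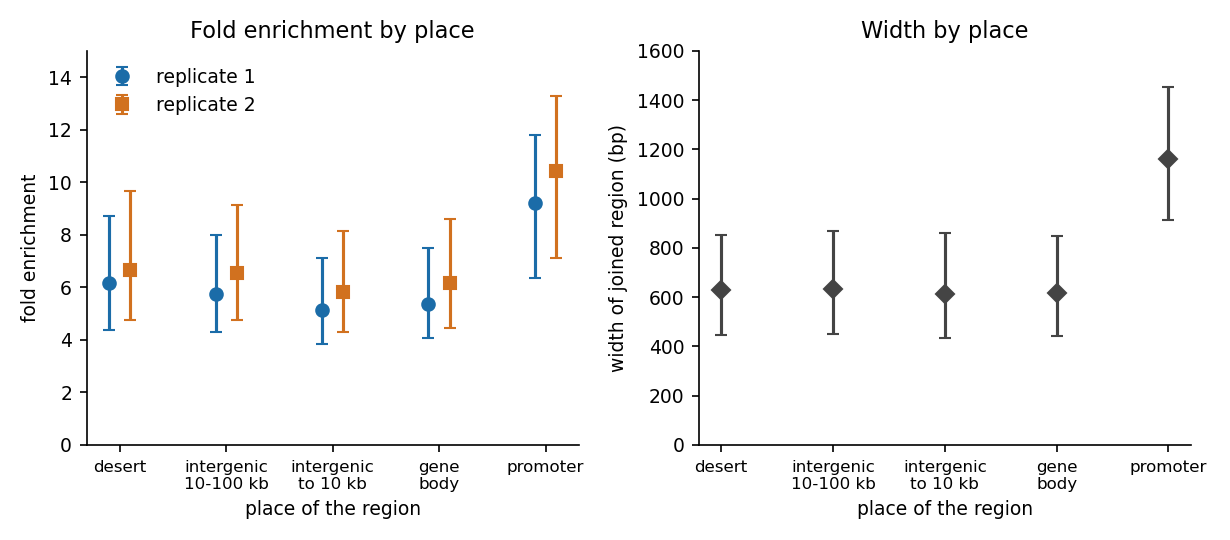
Fold enrichment (left, one point per replicate) and width in bp (right) of regions by place, as medians with bars between the quartiles over regions. Desert regions, with medians of 6.16 and 6.66 and 628 bp, overlap the other distal places, and promoters lie higher at 9.22 and 10.4 and 1162 bp.

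The 2 replicates ranked desert regions in a broadly similar order, with a Spearman rho across regions of 0.797. That was below the 0.884 over all other regions, 0.819 at 10 to 100 kb, 0.807 in gene bodies and 0.944 at promoters. Regions are not independent replicates. Region by region, the fold of replicate 2 was a median 1.09 times that of replicate 1, with 5% of regions below 0.673 and 5% above 1.70. Of the 3512 desert peaks of replicate 1, 82.0% overlapped a peak of replicate 2 (95% Wilson interval 80.7 to 83.2%), and of the 4088 of replicate 2, 70.6% overlapped one of replicate 1 (69.2 to 72.0%). At promoters these shares were 96.7% and 94.2%, and at 10 to 100 kb 85.2% and 70.7%. Overlap followed strength. All peaks of each list were split into 4 equal bins by fold. Of the desert peaks in the weakest bin, 53.0% in replicate 1 and 38.6% in replicate 2 were shared. In the strongest bin these shares were 99.6% and 98.8%. The strongest desert peak seen in replicate 1 alone, 789 kb from Ddx18, had a fold of 16.4 over 180 bp, and the strongest in replicate 2 alone, 636 kb from Epha7, had 14.2 over 201 bp.

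**Figure D3:**
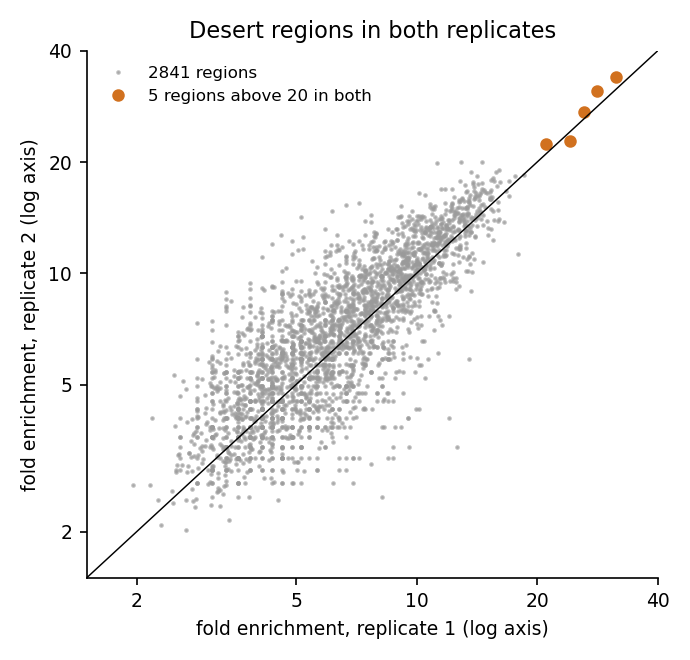
Fold enrichment of the 2846 desert regions in replicate 1 (x axis) and replicate 2 (y axis), both on log axes, with the line of equal values. The cloud follows the line (rho 0.797), and 5 regions above 20 in both replicates stand apart at the upper right.

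Those 5 regions stood apart from all others. They had folds of 31.4 and 34.0 (Rap2b to Arhgef26), 28.3 and 31.2 (Esp15 to Esp38), 26.2 and 27.3 (Gm8797 to 1700008P02Rik), 24.2 and 22.8 (Fbxo15 to Neto1) and 21.1 and 22.4 (Ube2e2 to Gm21738), and the next had 18.5 and 18.5. In 4 of the 5 the 200 bases at the summit had more than 1 alike place on the assembled chromosomes (at least 80% identity over at least 50% of the window, the place itself included), namely 6, 4, 23 and 3, and the Neto1 region had 1. The Esp38 region, at chr17:39846149-39847913, overlaps a gene that GENCODE annotates as ribosomal RNA, CT010467.1. Each of the 5 stood alone, with its nearest neighbour between 179939 and 916908 bp away. Whether extra genome copies add to these folds was not tested. Without the 5 the median of the 2 replicates' mean fold was 6.43, against 6.44 with them.

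Below these came regions with folds under 20 in both replicates. The sixth, 340.3 kb from Cblb, a ubiquitin ligase that restrains T cell activation, had folds of 18.5 and 18.5 and 93 alike places. A region 204 kb from Cd47, the surface ligand of SIRP alpha, had 16.1 and 18.99 with pileups of 231 and 305. One at 107 kb from Tet2, which oxidises methylcytosine, had 16.2 and 17.6, and one at 121 kb from the glucocorticoid receptor gene Nr3c1 had 15.3 and 17.9. The region 776 kb from Myc had 14.6 and 19.98, with pileups of 69 (95% Poisson interval 53.7 to 87.3) and 146 (123 to 172). Of the 20 strongest, 9 had more than 1 alike place and 6 held an AP-1 match.

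The widest regions lay at chromosome starts. Of the 10 widest, 8 lay between the start of a chromosome and its first protein-coding gene, led by regions of 9448 bp on chromosome 17 (folds 6.52 and 6.24) and 8062 and 6253 bp on chromosome 4 (5.97 and 5.98, and 6.93 and 7.91). All 8 had between 6 and 136 alike places. In all, 25 desert regions started within 500 kb of the first sequenced base of a chromosome, and 9 of these were over 2 kb wide. The other 2 were a region of 2710 bp between Stag2 and Tex13c2 on the X chromosome, with folds of 8.06 and 10.6 and 1 alike place, and one of 2386 bp between Tcp10c and Tcte2, with 17.0 and 17.8 and 1409 alike places. Only 13 desert regions (0.457%) had a median 31-base word that occurred more than once in the genome, against 0.298% of all other regions.

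Regions were spread unevenly over deserts. A desert here is a gap between protein-coding genes that holds bases over 100 kb from every start; there were 2007, and 638 held at least 1 region. The 178 deserts with 5 or more held 1993 regions (70.0%), and the 18 fullest, with 20 or more each, held 577 (20.3%) in 2.64% of the eligible bases. A single region was the content of 233 deserts. Members of the 18 fullest deserts were as strong as the rest, with median folds of 6.20 and 6.84, against 6.16 and 6.62 in the other deserts, and median widths of 649 bp, against 621 bp.

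The fullest desert lay between Myc, which drives cell growth, and Gsdmc, a gasdermin gene, on chromosome 15. It held 83 regions in 1621 eligible kb (51.2 per Mb), and 62 of them had Myc as the nearest gene. Their folds ran from 2.91 to 15.3 in replicate 1 and from 2.75 to 19.98 in replicate 2, with medians of 5.91 and 7.35. The desert on the other side of Myc, toward A1bg, held 24 more (27.8 per Mb, medians 5.91 and 6.10), so that Myc flanked 107 desert regions.

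Next came the 51 regions between Id2, an inhibitor of E proteins, and Rnf144a, a ubiquitin ligase gene, on chromosome 12 (46.2 per Mb), with medians of 6.59 and 7.80. The desert from Celf2, an RNA-binding protein gene, to Gata3, the Th2 regulator, held 45 (19.8 per Mb), all of them nearest to Gata3. These lay between chr2:8717311 and chr2:9764816, with median folds of 6.17 and 6.95. The Vrk1 to 3110018I06Rik desert on chromosome 12 held 43 (34.2 per Mb) with medians of 5.12 and 6.27; Vrk1 is a kinase gene, and the desert beyond 3110018I06Rik, toward Bcl11b, a T lineage factor, held 8.

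The Cd83 to Jarid2 desert, between an activation marker and a Polycomb cofactor, held 33, as did the desert from Foxo1, a factor of T cell quiescence and homing, to Cog6, with 60.1 per Mb. The Ccdc54 to Cblb desert held 31, with medians of 7.18 and 7.45. Satb1, a chromatin organiser of the T lineage, and Kcnh8 flanked 28, Klf6 and Akr1e1 27, and Chd7, a chromatin remodeller, and Clvs1 27 in 302 eligible kb (89.5 per Mb). Ptger4, a prostaglandin E receptor, and Dab2 flanked 26 regions with medians of 8.24 and 8.33, the highest of replicate 1 among the 18. All 24 regions of the Ets1 to Kirrel3 desert lay nearest to Ets1, an ETS factor of lymphocytes, within chr9:32832335-33199319, and their medians of 4.62 and 5.21 were the lowest of the 18 in both replicates. The Zeb2 to Acvr2a desert, the longest of the 18 at 3697 kb, held 20 (5.72 per Mb).

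**Figure D4:**
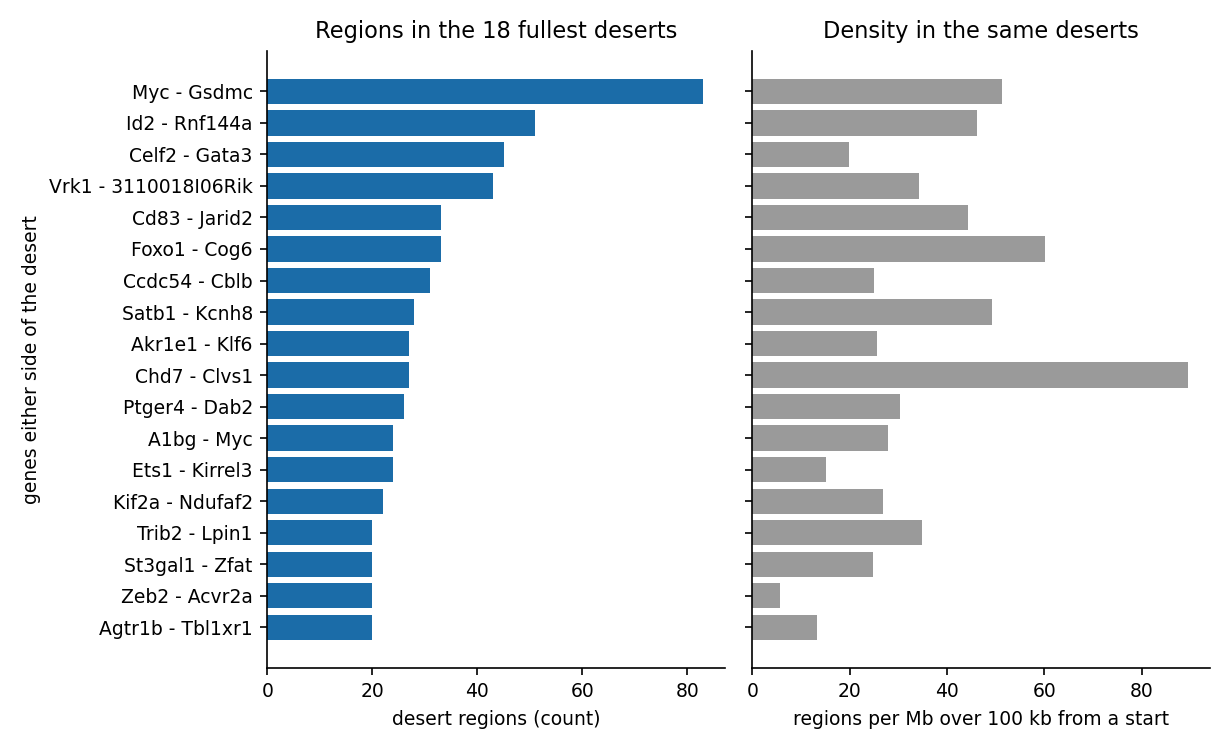
Number of desert regions (left) and regions per Mb of bases over 100 kb from every start (right) in the 18 fullest deserts, named by the genes either side. Myc to Gsdmc leads with 83 regions, and Chd7 to Clvs1 has 89.5 per Mb with 27.

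Among deserts with 5 or more regions, the densest were short. The Nrp1 to Itgb1 desert held 11 regions in 82.3 eligible kb (134 per Mb), between a co-receptor gene and the integrin beta 1 gene. The Smim20 to Rbpj desert, beside the Notch pathway factor Rbpj, held 11 in 88.7 kb (124 per Mb). The Tnfaip3 to Olig3 desert held 17 in 141 kb (120.5 per Mb), with medians of 5.71 and 6.76; Tnfaip3 encodes the NF-kB inhibitor A20 and Olig3 a neural factor. Ubr2 to Mrps10 followed with 17 (107 per Mb) and Irf2bp2 to Tomm20 with 15 (98.8 per Mb). Of the 17 between Ubr2 and Mrps10, the strongest by mean fold lay in the body of Trerf1, which GENCODE labels a processed transcript and not protein-coding. By chromosome, desert regions ran from 1.46 per Mb of eligible bases on X to 7.41 on chromosome 13 and 6.54 on chromosome 15, which holds both Myc deserts.

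Desert regions were often near one another. A window of 25 kb centred on the region held the centre of another region of any kind for 56.4% of desert regions, against 66.1% of all other regions and 64.3% of those at 10 to 100 kb, and the median distance to the nearest neighbour was 10.2 kb, 8.10 kb and 8.76 kb in the same order. The lower density of the deserts moves with these shares, and its part in them was not tested. When desert regions that lay in one another's windows were chained, they formed 1810 groups, of which 1247 were lone regions and 563 held 2 or more (1599 regions, 56.2%); 54 groups of 5 or more held 360. Lone regions had median folds of 6.41 and 6.65, those in groups of 2 to 4 had 6.16 and 6.82, and those in groups of 5 or more had 5.51 and 6.25. By median fold, the members of groups of 5 or more were thus not the stronger ones in either replicate. Pileups were not compared between these groups.

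The largest group held 14 regions within 47.2 kb, 816 to 862 kb from Myc, with a top fold of 10.7 and 11.4. Its strongest region is among the printed sequences and held a GATA and a STAT match. Between Tnfaip3 and Olig3, 13 regions lay within 74.9 kb, with top folds of 13.3 and 16.6. A group of 12 between Olfr1324 and Stk26 on the X chromosome spanned 69.5 kb, and 11 desert regions lay in the body of Firre, a long noncoding RNA gene there. Groups of 11 lay near Rbpj (48.3 kb) and Chd7 (48.3 kb). Near Gata3, 9 regions lay within 30.0 kb at 285 to 314 kb from its start, with top folds of 11.6 and 12.3. Near Ets1 a further 9 lay within 35.6 kb, with 12.2 and 12.3.

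Many long deserts held no region. Of the 226 deserts with over 1 Mb of eligible bases, 145 had none. The longest of these were Tenm3 to Aga (4568 eligible kb), Pcdh20 to Pcdh9 (4442 kb), Celf4 to Pik3c3 (4319 kb), Olfm4 to Pcdh17 (4243 kb) and Slc39a10 to Tmeff2 (3856 kb). Tenm3 encodes a teneurin and Pcdh20, Pcdh9 and Pcdh17 protocadherins, which are adhesion proteins of neurons. The lists of flanking genes were chosen with earlier results of these data known and are no independent evidence. Of 30 T cell transcription factor genes that flank one, 27 (90%) had at least 1 and 19 (63.3%) had 5 or more, and of 27 T cell receptor and signalling genes 25 (92.6%) and 19 (70.4%). Of 58 developmental transcription factor genes 21 (36.2%) and 7 (12.1%) did, and of 78 neuronal adhesion and synapse genes 19 (24.4%) and 7 (8.97%). Over all 3264 genes that flank a desert, 36.0% had at least 1 region in it and 10.4% had 5 or more. Only 3 of 20 Th2 genes flank a desert, and 2 of them, Gata3 and Maf, had 5 or more.

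Within the T cell lists the counts ran widely. Klf6, a Kruppel-like factor gene, flanked 46 regions in its 2 deserts. Runx1, of the RUNX family, had 13 toward Setd4 and Tox, an HMG box factor, 10 toward Car8. Dusp6, a phosphatase of ERK, had 19 in 296 kb, Ptprc, which encodes CD45, 16 in 1002 kb, Bcl2l11, which encodes the death factor BIM, 16 in 266 kb, and Icos, a costimulatory receptor gene, 11 in 461 kb. Among those with few, the nuclear receptor genes Nr4a2 and Rora had 0 in 1415 kb toward Kcnj3 and 0 in 558 kb toward Vps13c. The sphingosine phosphate receptor gene S1pr1 had 1 in 434 kb, and Bach2, a repressor of effector programmes, 1 in 74.5 kb. The Bach2 stretch is short, and its 1 region makes 13.4 per Mb, against 3.53 per Mb over all deserts. Ifngr1, the interferon gamma receptor gene on the far side of Olig3, had none in 35.4 kb, a shorter stretch still.

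Deserts of protein-coding genes still hold other genes. The body of a gene that GENCODE labels as other than protein-coding covered 682 desert regions (24.0%), with median folds of 6.18 and 6.78. Within 1 kb of the start of such a gene lay 187 (6.57%), with 6.50 and 6.90. The 2659 with no such start had 6.16 and 6.62. The median width was 681 bp at such starts, against 626 bp without one. Pvt1, a long noncoding RNA gene beside Myc, covered 22 regions over 340.1 kb. Gm14005 and Gm19585 covered 16 each, and Gm36723, Lncpint and Trerf1 14 each. Trerf1 is counted here by its label of processed transcript, and whether it codes for a protein was not tested. Zswim6, also labelled as other than protein-coding, covered the strongest region of the Kif2a to Ndufaf2 desert. That desert and the Ubr2 to Mrps10 desert are thus free of protein-coding genes only by these labels. When the bodies and starts of genes of every kind were set as the limit, 290 regions were left over 100 kb from all of them, 7 of these in the Myc to Gsdmc desert.

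Matches to the AP-1 letters were the most frequent of the T cell sequences searched at desert summits. In 200 bp at the summit, 34.6% of desert regions held TGANTCA (95% Wilson interval 32.9 to 36.4%), against 27.9% of regions at 10 to 100 kb, 21.0% of all other regions and 5.49% of 5280 equal windows 1 kb to either side of the desert summits and clear of peaks. Centred on the summit of replicate 1 or of replicate 2 alone the share was 33.6% or 34.7%. The 986 desert regions with a match had median folds of 6.67 and 7.73, and those without had 5.90 and 6.29. By distance the share was 33.8% at 100 to 200 kb, 37.3% at 200 to 500 kb and 29.5% of the 241 regions beyond 500 kb. All such intervals cover counting error over regions only.

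STAT, ETS and RUNX letters were also more frequent at desert summits than in their flanks. TTCNNNGAA, the spacing that STAT5 and STAT3 prefer, was found in 16.3% of desert regions, 12.8% of those at 10 to 100 kb, 9.95% of all other regions and 6.80% of flanks. AGGAAGT was found in 14.5%, 13.6%, 11.8% and 5.08% in the same order, and TGTGGTT in 10.9%, 9.40%, 7.47% and 4.32%. For AGATAA, the GATA letters, the share of desert regions (427 of 2846, 13.7 to 16.4%) was above the 11.2% at 10 to 100 kb and the 8.81% of all other regions, but the flanks held 12.9%, within 1.16 times of it. TGGAAAA, the NFAT letters, were rarer at summits (4.29%) than in flanks (6.36%). The STAT spacing with 4 bases between the arms, which STAT6 prefers, was found in 9.07% of desert regions and 6.53% of flanks.

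The CTCF and SP letters were rare in deserts. The CTCF core CNAGNGGGC was found in 2.85% of desert regions (2.30 to 3.52%), against 6.70% at 10 to 100 kb, 6.92% of all other regions and 1.19% of flanks. A longer CTCF consensus gave 1.26%, 4.69%, 2.997% and 0.0379%. The 36 desert regions with the longer form had median folds of 4.88 and 5.95, below the medians of 6.16 and 6.69 of those without. Chromosome 18 and regions whose median 31-base word recurred were left out when the strongest of the 36 was picked. It lay between Dyrk1a and Kcnj6, with folds of 7.17 and 10.5. Beyond 500 kb, 2 of 241 regions held the CTCF core. GGGCGGG, which SP and KLF factors bind, was found in 3.23% of desert regions and in 15.4% of all other regions, 41.0% of promoters among them. Base composition moves with these shares: the median GC content was 45.5% in deserts, 48.5% at 10 to 100 kb and 65.5% at promoters. A CpG ratio above 0.6 together with a GC content above 50% was found in 3.30% of desert windows, against 27.3% of all other windows. Its part in the shares was not tested.

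**Figure D5:**
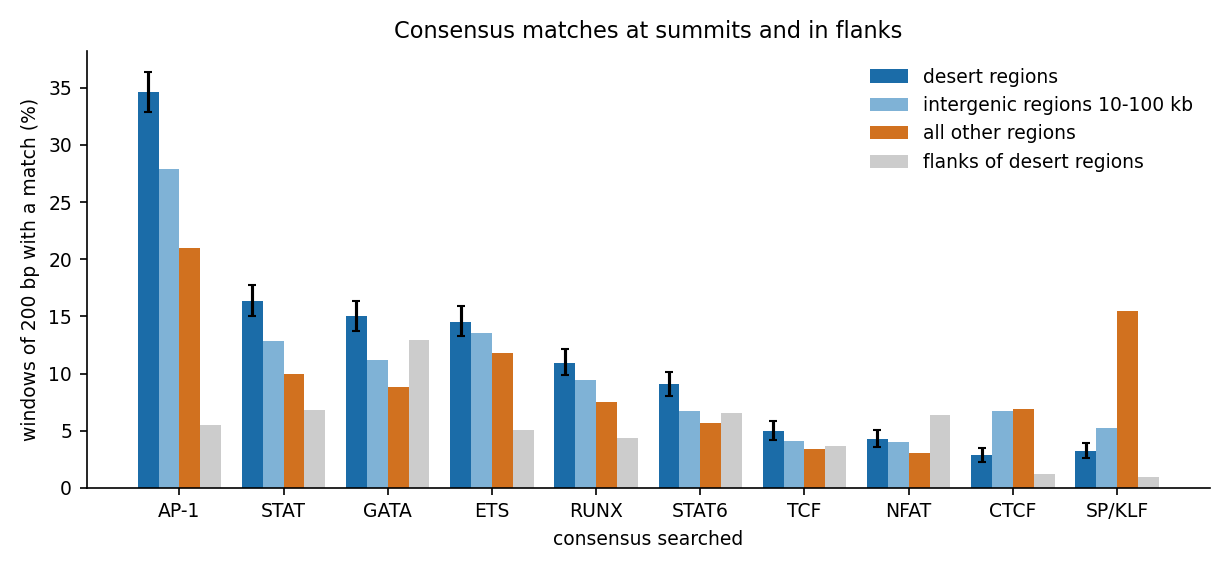
Percent of 200 bp windows with a match to each consensus at the summits of desert regions (bars with 95% Wilson intervals), of intergenic regions at 10 to 100 kb and of all other regions, and in the flanks of desert regions. AP-1 leads in deserts at 34.6% with 5.49% in flanks, GATA lies near its flanks, which hold it in 12.9%, and CTCF and SP/KLF are lower in deserts than in all other regions.

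Counted together, 28.8% of desert regions held none of 8 T cell letter groups (AP-1, ETS, RUNX, GATA, TCF, NFAT, STAT and IRF), against 39.1% of regions at 10 to 100 kb, 37.1% of those in gene bodies and 79.4% of promoters. At least 3 of the 8 were held by 6.68% of desert regions, 4.22% of those at 10 to 100 kb and 4.41% of those in gene bodies. The share was 3.14% over all other regions, promoters among them at 0.446%. Among the 18 fullest deserts the AP-1 share ran from 7.14% in the Satb1 to Kcnh8 desert to 51.9% in the Akr1e1 to Klf6 desert. In the Myc to Gsdmc desert 27 of 83 regions held the AP-1 letters, 15 the STAT, 13 the GATA, 10 the ETS and 1 the RUNX letters. In the Celf2 to Gata3 desert 13 of 45 held AP-1, 11 STAT, 10 GATA, 7 ETS and 7 RUNX. The deserts were not tested against each other.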

How the data were processed

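ATAC-seq peak lists of 2 Th2 libraries were analysed, each made from 1 library and deposited by the authors on mm10; the aligner and peak caller are not given in the sources, and the deposited peak names carry the words ASTARR, insert, masked, dedup and sorted and a time in hours without explanation, so the assay behind the fold and pileup is known only from the label ATAC-seq. The deposited narrowPeak columns used were the fold enrichment at the summit (a ratio), its −log10 p-value, its −log10 q-value and the summit position; the deposited score was not used. Replicates are GEO's replicate numbers 1 and 2.

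Peaks were joined at 1 bp of overlap, and regions were placed by their centre against GENCODE M21 basic gene bodies and transcript starts. Neighbours were counted in windows of 25 kb centred on each region. Both strands of the RefSeq GRCm38.p6 sequence were searched for consensus letters in windows of 200 bp, and in equal windows 1 kb away that no peak touched; overlapping matches were allowed. Alike places were found with blastn 2.17.0. Python 3.11.15, pandas 2.3.3, numpy 2.4.6, scipy 1.17.1 and pysam 0.24.0 were used, and the joining, placing, searching and pileup steps were tested on simulated data. Deserts were named by the 15 with most regions (ties included) and the 10 densest with 5 or more, and regions by the 20 strongest, 10 widest and 10 farthest. The desert limit, the gene lists, the motifs and the marker genes were chosen with earlier results of these data known. Alternatives tried were a stricter q, a stricter overlap, the summit in place of the centre, gene ends, other distances, genes of every kind, each replicate alone, other neighbour distances, windows and summits, and other measures of width and strength; 2 more, leaving out the 5 strongest regions or those at chromosome starts, were chosen after seeing the data. A depth in reads is not known, and the number of regions and the recovered pileups set the precision.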

Additional observations from a re-analysis of the deposited data

How the results depend on the processing

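The reported values were 2846 regions, a median mean fold of 6.44, a fold difference of 0.334 to regions at 10 to 100 kb, a width of 628 bp, 56.4% with a neighbour, 83 in the Myc to Gsdmc desert, and 34.6% and 2.85% with the AP-1 and CTCF letters. Placing regions by summit or by the 5′ end of each gene moved none of these beyond its spread. A −log10 q of at least 10 left 1648 regions with a fold of 8.55, a width of 741 bp, 46.6% with a neighbour and 38.2% with AP-1. Overlap of at least 50% of each peak gave a fold of 6.83 and 52.8% with a neighbour. A limit of 200 kb left 1229 regions, 51.9% with a neighbour; 50 kb gave 5233, with AP-1 in 32.4% and CTCF in 3.69%. Genes of every kind left 290 regions, with a fold of 6.01, a difference of -0.105, a width of 576.5 bp, 47.2% with a neighbour, 7 near Myc, AP-1 in 37.6% and CTCF in 0.690%; this set has fewer regions by construction. Each replicate alone gave 3512 to 4088 regions, folds of 5.39 to 5.42, a difference of 0 to 0.207, widths of 428.5 to 452.5 bp, 58.9 to 65.8% with a neighbour, 90 to 112 near Myc, AP-1 in 30.95 to 34.3% and CTCF in 3.02 to 3.16%. Neighbours within 5 or 25 kb were 28.7% and 72.8%. Windows of 100 and 300 bp gave AP-1 in 23.8% and 39.4% and CTCF in 1.58% and 3.58%. The mean peak width was 526.5 bp. The strength difference was 0.599 in −log10 p and -0.5 in pileup. Except for construction, the cause of these shifts was not tested. No paired analysis was possible because the series has 1 group. Weak regions were shared least, and the part of depth was not tested. Of desert peaks in the weakest of 4 equal bins of all peaks, 53.0% and 38.6% were shared in replicates 1 and 2.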
